A study of Arabidopsis thaliana with 9 samples.

Results

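The comparison is of root tips from 170G-55-16, a near isogenic line (NIL) for which the labels give HGI2.1 as another name, with those of L*er* (L*er*-2 in the labels). It was made on Affymetrix ATH1 arrays, 3 per genotype, which are 6 of the 9 arrays of the series. The arrays were chosen by their genotype labels, and the values of the other 3, from Cvi, are given beside them where the position of the NIL between both accessions is described. Each array was hybridized with biotin-labelled material from the total RNA of 1 biological replicate, the pooled 7 mm root tips of about 600 seedlings. All groups were wild-type or NIL seedlings 5 d old, with no transgene, deletion or chemical treatment in the labels. They had grown in the wave assay, on hard agar in plates that stood upright for 2 d and were then tilted back by 30° for 3 d. The segments that the NIL carries, and whether it is 1 isolate, are not stated in the labels or the methods.

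A NIL carries a short stretch of the chromosomes of a donor accession in the otherwise uniform background of another, so that a genotype difference can be traced to a few loci. Genes inside such a stretch can differ in transcript level through their own regulatory sequence, and genes elsewhere through regulators that lie inside it. Roots of *Arabidopsis thaliana* on tilted hard agar wave and skew as they touch the surface, and accessions differ in these patterns.

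The value per probe set and array was a normalized hybridization signal, a linear intensity that was turned into log2 for all comparisons. A difference is the NIL minus L*er* on the log2 scale, so that 1 is a 2-fold higher signal in the NIL and −1 a 2-fold lower signal. The 22746 probe sets that are not controls were tested together with limma in a fit to all 9 arrays, with p-values adjusted over all of them by the method of Benjamini and Hochberg. A probe set was called where the adjusted p was under 0.05 and the difference at least 2-fold. The array correlations across probe sets were 0.9961 to 0.9969 within the NIL, 0.9968 to 0.9977 within L*er* and 0.9942 to 0.9967 between them. The 3′ minus 5′ log2 signal of actin, a measure of RNA quality, was 0.93 to 1.1 in the NIL and 0.89 to 1.0 in L*er*. Cvi stood apart on actin, at −2.65 to −2.1, but less so on 2 other transcripts. GAPDH had −0.01 to 0.04 in Cvi, −0.26 to −0.08 in the NIL and −0.17 to −0.08 in L*er*. Ubiquitin had 0.52 to 0.75 in Cvi, 0.11 to 0.24 in the NIL and 0.18 to 0.26 in L*er*. The Cvi arrays correlated with the NIL at 0.9632 to 0.9823. The part of these Cvi differences in the values that place the NIL near Cvi was not tested. The probes follow the sequence of another accession, Columbia, so a lower transcript level and a sequence difference under a probe cannot be told apart. Nor can fewer cells of a type and less RNA per cell in these pooled tips.

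The NIL and L*er* root tips differed at few genes, and most of these were lower in the NIL. Of the 22746 probe sets, 43 were called (0.189%), 11 higher (0.0484%) and 32 lower (0.141%) in the NIL. Without the 2-fold limit, 81 probe sets passed the adjusted p (0.356%), 23 higher and 58 lower. The 3 NIL arrays did not overlap with the 3 L*er* arrays at any of these 81, nor at 13.6% of all probe sets. A single gene named here and not overlapping has p = 0.1 in the exact two-sided permutation test, the smallest that 3 arrays against 3 allow. Of the 43, 28 have 1 gene in the annotation used here, 8 higher and 20 lower, while 15 are unnamed. Leaving out 1 of the 6 NIL and L*er* arrays at a time gave 28 to 38 calls, the lowest without NIL array 1, where all 28 were among the 43.

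In gene order, 27 of the 28 named genes lay on chromosome 2 between AT2G18620 and AT2G40580, and the other, AT4G03156, on chromosome 4. These bounds had been drawn from the same arrays, so the share called inside them, 2.47% of 1095 probe sets, is a description and was not tested against the 0.00815% of the 12272 placed elsewhere. Without the 2-fold limit the counts were 46 inside and 8 outside, of which 1 lay on chromosome 1, 1 on chromosome 3, 2 on chromosome 4 and 4 on chromosome 5. On chromosome 2 outside the bounds, limma called 0 of 1105 probe sets at either limit, and 21 of them (1.9%) had an unadjusted p under 0.05, against 3.84% over the array.

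**Figure D1:**
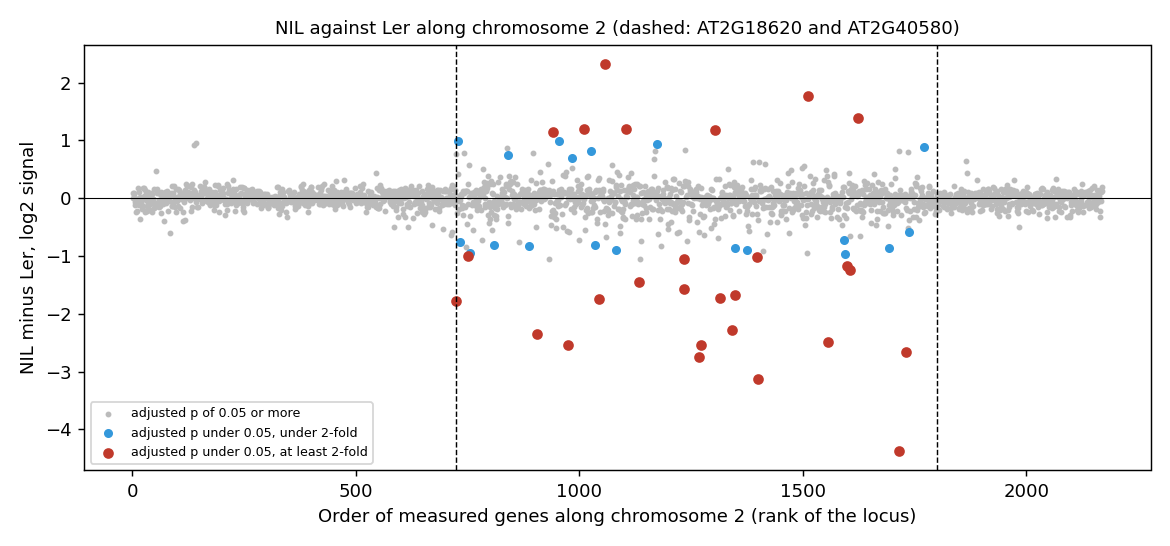
Each point is a probe set with 1 gene on chromosome 2, placed by the order of the measured genes (x axis) and by its NIL minus L*er* difference in log2 signal (y axis), with the bounds as dashed lines. Red points passed an adjusted p under 0.05 and 2-fold, blue points the adjusted p only, and both kinds lie between the bounds alone.

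The differences were more widely spread between the bounds than on either side of them. Between them the differences had a standard deviation of 0.4 over 1095 probe sets, and 9.13% were at least 0.5 in size. Before AT2G18620 the standard deviation was 0.14 over 731 probe sets and 1.09% reached that size, and after AT2G40580 it was 0.13 over 374 with 0.267%. On the other 4 chromosomes it was 0.14 over 11167 with 0.448%. The median difference was near 0 in each region, from −0.01 to 0.01.

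The called genes were scattered through the stretch. It holds 1076 of the 2169 measured genes of chromosome 2, the 725th to the 1800th in order. When it was divided into 4 parts of 269 genes, 5, 7, 9 and 6 genes were called from the first part to the last, and 13, 11, 10 and 11 passed the adjusted p at any fold. Between neighbouring called genes lay a median of 31 measured genes. The longest run with no call was the 152 genes between AT2G19130 and AT2G21850. AT2G28620 and AT2G28660, both lower in the NIL, were next to each other, and 2 measured genes lay between the lower genes AT2G32150 and AT2G32190.

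At the left end, the first called gene was AT2G18620, while the measured gene before it, AT2G18600, had a difference of 0.77 that did not pass (adjusted p = 0.406 from limma). Its NIL arrays still lay above those of L*er*, and its NIL mean of 8.63 was near Cvi at 8.6, with L*er* at 7.86. At the right end, the last called gene was AT2G39310 and the last that passed at any fold AT2G40010 (0.88, adjusted p = 0.0117 from limma). The next measured gene, AT2G40020, had a difference of 0.00, but it was dim in all groups. Its means were 3.61 in the NIL, 3.62 in L*er* and 3.77 in Cvi, so it cannot show where the differences end. Farther out, the 5 nearest genes on each side that were called between Cvi and L*er*, as 3.88% of all probe sets were, are given by their values. On the right, the NIL minus L*er* difference of the 5 ran from −0.13 to 0.44, with Cvi called at each, as at AT2G41380 (Cvi minus L*er* −1.02, NIL minus L*er* 0.07) and AT2G41780 (−2.50 and 0.44). On the left, the annotated pseudogene *CYP51G2* (AT2G17330, −1.71 and 0.23), AT2G18210 (−1.0 and −0.04) and AT2G18370 (1.09 and 0.18) had NIL arrays that overlapped with L*er*. The linker histone gene *HIS1-3* (AT2G18050, −2.22 and −0.54) had NIL arrays between those of both accessions. AT2G18400, the closest to the left bound of the 5, had 8.13 on each NIL array, 8.94, 8.26 and 9.07 in L*er* and 7.15, 8.06 and 8.04 in Cvi. Its NIL arrays lay below L*er*, with a difference of −0.63 that did not pass (adjusted p = 1 from limma), and were nearer to Cvi. The comparisons share the L*er* arrays, so these pairs of values are side by side and not independent.

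The largest named difference was at AT2G39040, a class III peroxidase gene of the family that oxidizes phenolic compounds in the cell wall. Its log2 signal was 6.18, 6.12 and 6.10 on the NIL arrays and 10.49, 10.43 and 10.60 on the L*er* arrays. All NIL arrays thus lay far below all L*er* arrays, with little spread in either group. The difference was −4.37 (standard error 0.17, adjusted p = 1.33e-06 from limma), a 20.7-fold lower signal. Cvi, at 5.37, 6.10 and 6.01, was as low as the NIL.

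AT2G32190 encodes a small cysteine-rich transmembrane protein. It had 2.89, 2.99 and 2.99 in the NIL and 6.12, 5.56 and 6.56 in L*er*. The NIL values are among the dimmest of the array and the L*er* arrays varied more among themselves. Its signal was 8.72-fold lower in the NIL (−3.12, standard error 0.20, adjusted p = 3.95e-05 from limma), or 3.54-fold with 16 added to every signal before the log. *TRI* (AT2G29330), a short-chain dehydrogenase gene named for its likeness to the tropinone reductases of alkaloid synthesis in nightshades, had 6.04, 5.93 and 5.74 in the NIL and 8.67, 8.63 and 8.63 in L*er*. The L*er* arrays were nearly equal and all above the NIL, a 6.68-fold difference (−2.74, standard error 0.16, adjusted p = 1.93e-05 from limma).

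*JAL22* (AT2G39310), a gene for a jacalin-related lectin that binds carbohydrates, was lower in the NIL than in both accessions. It had 7.86, 8.01 and 7.90 in the NIL, 10.66, 10.49 and 10.59 in L*er* and 9.23, 8.66 and 8.93 in Cvi. No array of any genotype overlapped with those of another. The NIL was below L*er* by 6.30-fold (−2.66, standard error 0.14, adjusted p = 7.48e-06 from limma) and differed from Cvi by −1.02 (adjusted p = 8.50e-04 from limma).

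AT2G29500, a small heat shock protein gene of the chaperones that keep unfolding proteins soluble, had 4.75, 4.87 and 4.84 in the NIL and 7.14, 7.23 and 7.69 in L*er*. AT2G23400, of the cis-prenyltransferases that build long isoprenoid chains, had 3.18, 3.01 and 3.02 in the NIL and 5.67, 5.49 and 5.65 in L*er*. In both genes every NIL array was low, and AT2G23400 was very dim there. Both differences came to −2.53, a 5.79-fold lower signal (adjusted p = 2.94e-05 and 2.73e-06 from limma). With 16 added to every signal they were 4.06-fold at AT2G29500 and 2.65-fold at AT2G23400, so their equal size depends on the dim end of the scale. The serine carboxypeptidase-like gene *scpl26* (AT2G35780) had 5.60, 5.73 and 5.79 in the NIL and 8.25, 8.15 and 8.19 in L*er*. With tight groups on both sides, its difference of −2.49 had a standard error of 0.10 (adjusted p = 1.77e-06 from limma).

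AT2G21850, a gene for a cysteine- and histidine-rich C1 domain protein, had 6.02, 5.90 and 5.97 in the NIL against 8.19, 8.18 and 8.55 in L*er*. It was lower on all NIL arrays, by 5.07-fold (−2.34, adjusted p = 7.16e-06 from limma). At AT2G30990, L*er* was the more variable group, with the NIL at 4.76, 4.93 and 4.59. It ranged over 6.93, 6.44 and 7.74 in L*er*, the widest spread of a called named gene. The NIL was 4.84-fold lower (−2.27, adjusted p = 0.00784 from limma). Without 2 of the 6 arrays in turn the gene failed the threshold, at an adjusted p of up to 0.0766 without NIL array 3. AT2G18620, a geranylgeranyl diphosphate synthase gene of the pathway that supplies carotenoids and gibberellins, had 6.27, 5.99 and 6.48 in the NIL and 7.93, 8.20 and 7.93 in L*er*. All its NIL arrays were lower, at a difference of −1.77 (adjusted p = 0.00151 from limma).

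**Figure D2:**
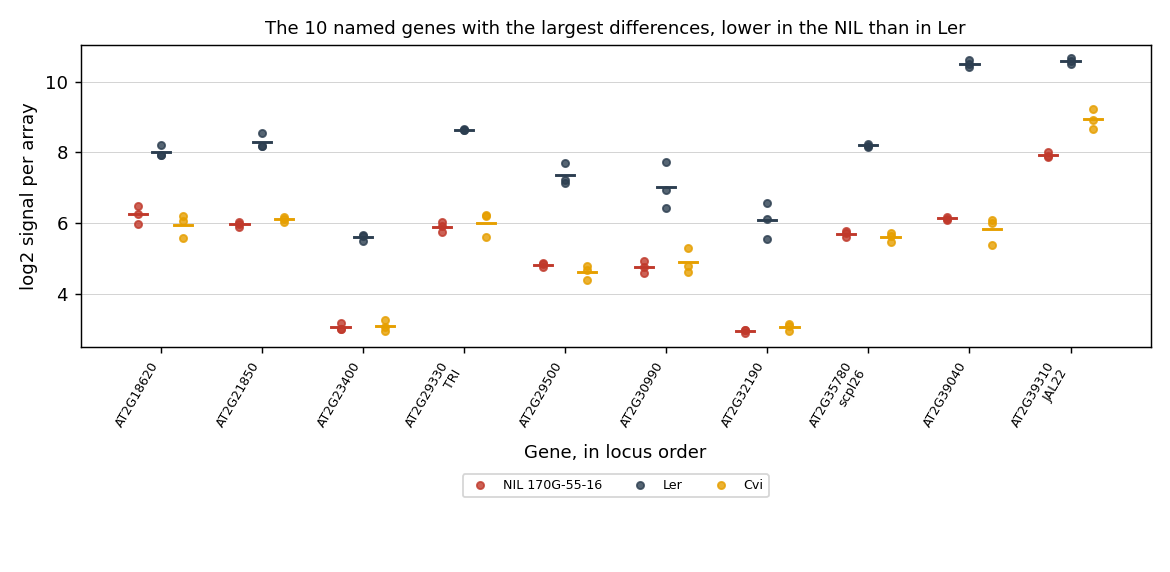
Log2 signal of each array (y axis) at the 10 named genes with the largest lower signals in the NIL, in locus order (x axis), with a point per array and a bar at each group's mean (n = 3 arrays per genotype). The NIL points lie near the Cvi points and below L*er* at each gene except *JAL22*, where they are also below Cvi.

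The other 10 called genes with lower signals differed by −1.74 to −1.01. They included genes for a CCCH zinc finger protein (AT2G24830, −1.74), a heavy-metal-associated domain protein (AT2G28660, −1.57), a HAD-type hydrolase (AT2G32150, −1.02) and an S-locus lectin receptor kinase (AT2G19130, −1.01). Among genes of the cell wall, the pectin methylesterase gene AT2G36710 had −1.18, and AT2G31110, of the family that acetylates wall polysaccharides, had −1.68. AT2G31110 has another probe set, which had −0.87 (adjusted p = 0.0199 from limma), so that both were lower but by different amounts. AT2G30530 (−1.73), AT2G36885 (−1.24), the annotated pseudogene AT2G26630 (−1.46) and the gene for a kinesin-5 motor of the spindle, AT2G28620 (−1.06), make up the rest.

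Several of these calls were lost when 1 array was left out. AT2G28620 lost its call without any 1 of the 6 arrays (adjusted p = 0.0513 to 0.081 from limma), and AT2G19130 without 5 of them (up to 0.0875). The sizes of these 2 differences changed little, at −1.1 to −1.0 and −1.05 to −0.95. AT2G26630 and AT2G36710 each failed the adjusted p without 4 (up to 0.185 without NIL array 1 and up to 0.114 without NIL array 3). Both also failed it with 16 added to every signal (0.113 and 0.0727). Without L*er* array 2, AT2G36710 passed the adjusted p but lost its call at −0.96, under 2-fold. With 16 added, AT2G28620 and AT2G19130 were under 2-fold too, at −0.87 and −0.84. The L*er* arrays of AT2G26630 had 5.93, 6.25 and 7.02, and array 3 stood above the others.

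On the higher side, the largest difference on chromosome 2 was at AT2G25150, the spermidine dicoumaroyl transferase gene *SCT*, whose enzyme attaches coumaroyl groups to the polyamine spermidine. It had 7.70, 7.68 and 7.84 in the NIL and 5.74, 4.94 and 5.56 in L*er*. The NIL arrays were tightly grouped and all above L*er*, a 5.00-fold difference (2.32, standard error 0.23, adjusted p = 0.00151 from limma). AT2G34840, for an epsilon subunit of the coatomer that coats vesicles between the Golgi apparatus and the endoplasmic reticulum, had 6.51, 6.50 and 6.38 in the NIL and 4.92, 4.88 and 4.28 in L*er*. Here too no arrays overlapped, and the NIL was 3.40-fold higher (1.77, standard error 0.19, adjusted p = 0.0021 from limma).

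AT2G37240, a thioredoxin-like gene, had 8.71, 8.82 and 9.22 in the NIL and 7.39, 7.54 and 7.66 in L*er*, a difference of 1.38 (adjusted p = 0.0031 from limma). The gene for another jacalin lectin, AT2G25980, was among the brightest of the called genes. It had 11.32, 11.21 and 11.33 in the NIL and 10.17, 9.93 and 10.14 in L*er*, and so moved opposite to *JAL22* (1.20, adjusted p = 0.00879 from limma). The cytochrome P450 gene *CYP71B6* (AT2G24180) had 9.97 to 10.15 on the NIL arrays against 8.98, 8.74 and 8.83 in L*er*, a difference of 1.19 (adjusted p = 0.0268 from limma). Its call was lost without any 1 of the 6 arrays (0.103 to 0.182) and with 16 added to every signal (0.0713), and that of AT2G25980 without 4 of them (up to 0.0782).

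*UGT87A2* (AT2G30140), a glycosyltransferase gene with a known effect on flowering time, had 10.04, 10.23 and 10.13 in the NIL and 9.01, 8.90 and 8.96 in L*er*. Both groups were tight, and the 2.26-fold higher signal of the NIL (1.18, standard error 0.12, adjusted p = 0.00151 from limma) passed without each array in turn. AT2G22650 had 6.34, 6.44 and 6.54 in the NIL and 5.39, 5.27 and 5.24 in L*er* (1.14, adjusted p = 0.00605 from limma). The gene was higher on all NIL arrays, yet failed the threshold without 3 of the 6 arrays in turn (up to 0.0635).

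**Figure D3:**
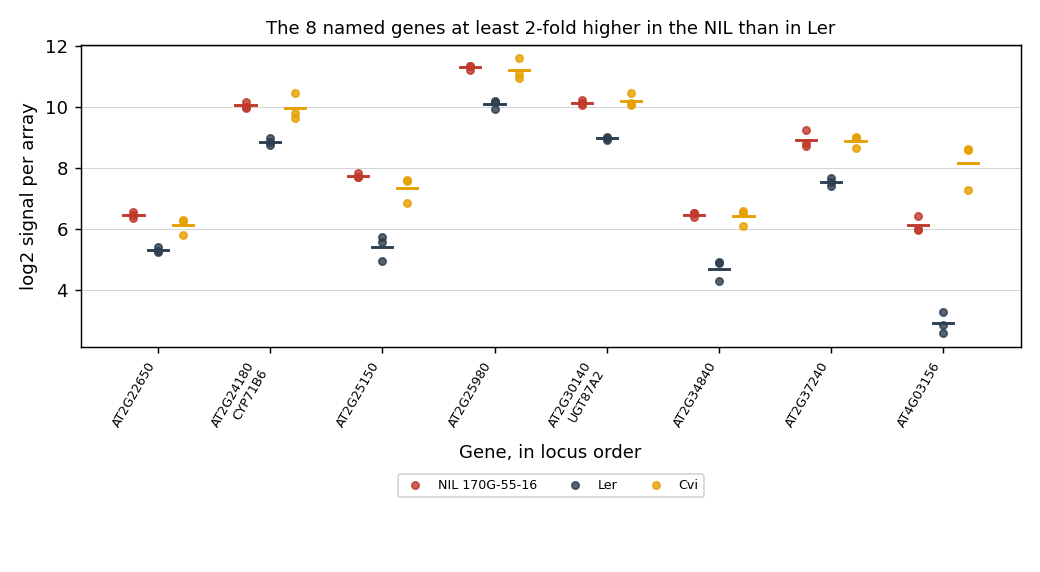
Log2 signal of each array (y axis) at the 8 named genes called higher in the NIL, in locus order (x axis), with a point per array and a bar at each group's mean (n = 3 arrays per genotype). At the 7 chromosome 2 genes the NIL bar lies nearer to the Cvi bar than to the L*er* bar, and at AT4G03156 it lies between them.

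At the 27 called genes of chromosome 2, the NIL was close to Cvi. Their NIL minus Cvi difference ran from −1.02 at *JAL22* to 0.69 at AT2G26630, with a median size of 0.1, against a median size of 1.73 for the NIL minus L*er* difference by which they were called. Of the 27, only *JAL22* passed an adjusted p between the NIL and Cvi, against 10.8% of all probe sets.

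Not every gene of the stretch that differed between the accessions had a Cvi-like signal in the NIL. At 9 genes between the bounds, picked by their values and so given with no test, Cvi was called against L*er* and differed from the NIL, while the NIL lay within 0.5 of L*er*. Over the array Cvi was called against L*er* at 3.88% of probe sets, and the share that met all these limits is not given here. At the class III peroxidase gene AT2G35380, Cvi had 10.19, 10.19 and 10.31, the NIL 9.06, 8.87 and 9.13 and L*er* 8.85, 9.20 and 8.78. The NIL arrays thus overlapped with those of L*er* and lay well below Cvi. AT2G37870 had 7.92, 8.53 and 8.74 in Cvi, 10.13, 10.02 and 10.32 in the NIL and 10.25, 10.87 and 10.66 in L*er*. *ATC* (AT2G27550), a relative of the flowering repressor *TFL1*, had a Cvi minus L*er* difference of −1.11 and a NIL minus L*er* difference of −0.37. The others were AT2G19410, *PR-1-LIKE* (AT2G19990), AT2G23540, AT2G28780, AT2G35820 and AT2G36690. At *ATC*, *PR-1-LIKE* and AT2G36690 the NIL arrays lay between those of both accessions. The 9 genes lay among the called genes in locus order, as AT2G37870 did between AT2G37240 and AT2G39040.

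Under 2-fold, 38 more probe sets passed the adjusted p, with sizes of 0.58 to 0.99, and 19 of these were named and between the bounds, 7 higher and 12 lower. *EXPB1* (AT2G20750), a beta-expansin gene, had 9.88, 10.04 and 10.10 in the NIL and 9.32, 9.24 and 9.21 in L*er* (0.75, adjusted p = 0.016 from limma). Cvi lay between, at 9.40, 9.64 and 9.63. *sks16* (AT2G23630), a relative of the skewing gene *SKU5*, was higher by 0.70 (adjusted p = 0.029 from limma). AT2G40010, for a P0 protein of the ribosomal stalk, was also higher, as given above for the right end.

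Lower genes under 2-fold included AT2G31790 (*UGT74C1*), a glucosyltransferase gene of glucosinolate synthesis, at −0.89 (adjusted p = 0.014 from limma). AT2G36680, for a VPS37 subunit of the complex that sorts membrane proteins for degradation, had −0.97 (adjusted p = 0.0199 from limma). AT2G38640 had 6.28, 6.13 and 6.43 in the NIL, 7.18, 7.12 and 7.11 in L*er* and 6.81, 6.94 and 6.79 in Cvi. The NIL was thus below both accessions at this gene, by −0.86 from L*er* and −0.57 from Cvi (adjusted p = 0.00572 and 0.00545 from limma).

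Outside the bounds, 8 named genes passed the adjusted p. AT4G03156, which was called, had 6.43, 6.0 and 5.95 in the NIL, 2.86, 3.27 and 2.58 in L*er* and 7.26, 8.60 and 8.59 in Cvi. All NIL arrays lay above L*er* and below Cvi, so that this gene took a middle level. Relative to L*er*, the signal was 9.33-fold higher in the NIL (3.22, adjusted p = 0.00168 from limma) and higher by 5.24 in Cvi. The call held without each array in turn but not with 16 added to every signal (1.87 or 3.65-fold, adjusted p = 0.0727 from limma).

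The other 7 were lower in the NIL and under 2-fold. *SWEET11* (AT3G48740), a gene for a transporter that releases sucrose towards the phloem, had 8.58, 8.93 and 8.93 in the NIL and 9.82, 9.94 and 9.55 in L*er* (−0.96, adjusted p = 0.0199 from limma). Its relative *SWEET3* (AT5G53190) had 6.40, 6.75 and 6.45 against 7.42, 7.51 and 7.34 (−0.89, adjusted p = 0.0233 from limma). In both genes all NIL arrays were low, and Cvi, at 8.48 to 8.78 and 6.10 to 6.48, was low as well. Of the 14 *SWEET* genes named here, a family looked up after these values were seen, these were the ones that passed. Over the array 0.356% of probe sets passed, and the median difference of the 14 was −0.11.

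AT4G23590, a gene of the tyrosine transaminases, had 6.87, 6.81 and 6.87 in the NIL and 7.52, 7.81 and 7.41 in L*er* (−0.73, adjusted p = 0.0383 from limma). AT5G02170, of a family of amino acid transporters, had 7.77, 7.83 and 7.81 against 8.68, 8.43 and 8.60 (−0.77, adjusted p = 0.0131 from limma). In both the NIL lay a short way below L*er* and far above Cvi, whose difference from L*er* was −3.73 and −2.30. AT1G06620, of the 2-oxoglutarate-dependent dioxygenases, had 8.76, 8.87 and 8.76 in the NIL and 9.36, 9.33 and 9.43 in L*er* (−0.58, adjusted p = 0.0247 from limma). AT5G07330 had 4.75, 4.85 and 4.96 against 5.63, 5.84 and 5.88 (−0.93, adjusted p = 0.0109 from limma). The peroxidase gene AT5G15180 had 8.35, 8.76 and 8.35 in the NIL and 9.28, 9.13 and 9.22 in L*er* (−0.73, adjusted p = 0.0397 from limma), and NIL array 2 lay closer to L*er* than the other NIL arrays did. Each of these 7 genes failed to pass without 5 or 6 of the 6 arrays in turn, at an adjusted p of up to 0.0936 to 0.244, the highest at AT5G15180 without NIL array 3.

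**Figure D4:**
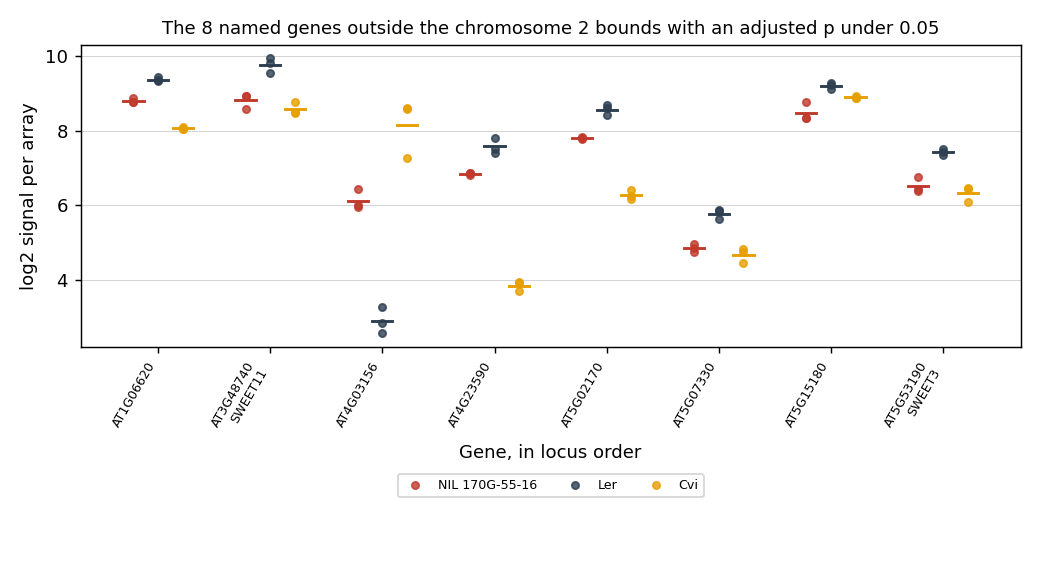
Log2 signal of each array (y axis) at the 8 named genes outside the bounds that passed the adjusted p, in locus order (x axis), with a point per array and a bar at each group's mean (n = 3 arrays per genotype). AT4G03156 is the gene with a higher signal in the NIL than in L*er*, and the other 7 are lower.

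In the gene families listed, at most 2 members passed in each, where 0.356% of all probe sets passed. Of the tropinone reductase-like genes, which stand in a row on chromosome 2, 11 were named here, and *TRI* alone passed. Its neighbour AT2G29320 had 5.92, 6.20 and 6.05 in the NIL and 6.59, 6.70 and 6.61 in L*er*, lower on all NIL arrays but not past the threshold (−0.58, adjusted p = 0.106 from limma). The other 9 ran from −0.41 to 0.21, and the median of the 11 was 0.01, against −0.02 over all probe sets. These genes are alike in sequence, and cross-hybridization between them was not tested.

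Of 9 named class III peroxidase genes of chromosome 2, AT2G39040 was the 1 that passed, against 0.356% of all probe sets, and the median was 0.07. The next in size was AT2G22420, with 6.63, 6.76 and 6.54 in the NIL and 6.12, 6.07 and 5.97 in L*er* (0.59, adjusted p = 0.081 from limma). Of 13 jacalin lectin and nitrile specifier genes, 1 was higher (AT2G25980) and 1 lower (*JAL22*), with a median of −0.06. *JAL23* (AT2G39330), close to *JAL22* in gene order, had a difference of −0.21, and *JAL33* (AT3G16450) −0.54 (adjusted p = 0.128 from limma). AT5G35940, a jacalin lectin gene of chromosome 5, had −0.39 where Cvi minus L*er* was −4.44.

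The polyamine genes, which make, conjugate, oxidize and carry such compounds as spermidine and cadaverine, gave *SCT* as the only member that passed. Over the array, 0.356% of probe sets passed. The other conjugation genes, *SDT* (AT2G23510) at 0.11 and *SHT* (AT2G19070) at 0.12, lie between the same bounds and were dim, at 3.17 to 3.96 in the NIL and L*er*. The 3 synthesis genes ran from −0.37 to 0.06, the 8 probe sets of 6 oxidase genes from −0.35 to −0.01 and the 3 organic cation transporter genes from −0.23 to 0.05. *OCT1* (AT1G73220), an organic cation transporter gene of chromosome 1, had 4.70, 4.48 and 5.41 in the NIL and 4.67, 5.09 and 4.69 in L*er*. Its NIL and L*er* arrays overlapped and both were far below Cvi, which exceeded L*er* by 3.36.

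Of 16 genes listed for root waving and skewing, 5 are named here. None of the 5 passed, where 0.356% of all probe sets did. They ran from −0.21 at *SKU5* (AT4G12420), for a wall glycoprotein, to 0.03 at *SPR1* (AT2G03680), which organizes microtubules. *TUA6* (AT4G14960), for an alpha-tubulin, had −0.03. Of the *ERECTA* family and its peptide ligands, *STOMAGEN* (AT4G12970) had 0.10 and AT5G10310 −0.05, while *ERECTA* itself, whose mutant allele marks L*er*, was not analysed here. Its locus, AT2G26330, lies between the bounds, and the labels do not state which *ERECTA* allele the NIL carries. The part of this allele in the differences between the NIL and L*er*, inside or outside the bounds, was not tested.

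The few cell type markers that are named here did not pass the adjusted p, which 0.356% of all probe sets passed. The root hair expansin genes *EXPA7* (AT1G12560) and *EXPA18* (AT1G62980) were bright, at 9.75 to 9.95 and 10.37 to 10.56 over the NIL and L*er* arrays, and differed by −0.10 and 0.04. The Aurora kinase genes *AUR1* (AT4G32830) and *AUR2* (AT2G25880), of dividing cells, had 0.02 and −0.19. The 1 photosynthesis gene named, *LHCB4.3* (AT2G40100), had −0.23, and the 3 reference genes −0.02 to 0.03. Root cap, endodermis, xylem, phloem, stem cell niche, epidermis pattern, auxin transport and tau glutathione transferase genes were listed too, but none is named here.

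**Figure D5:**
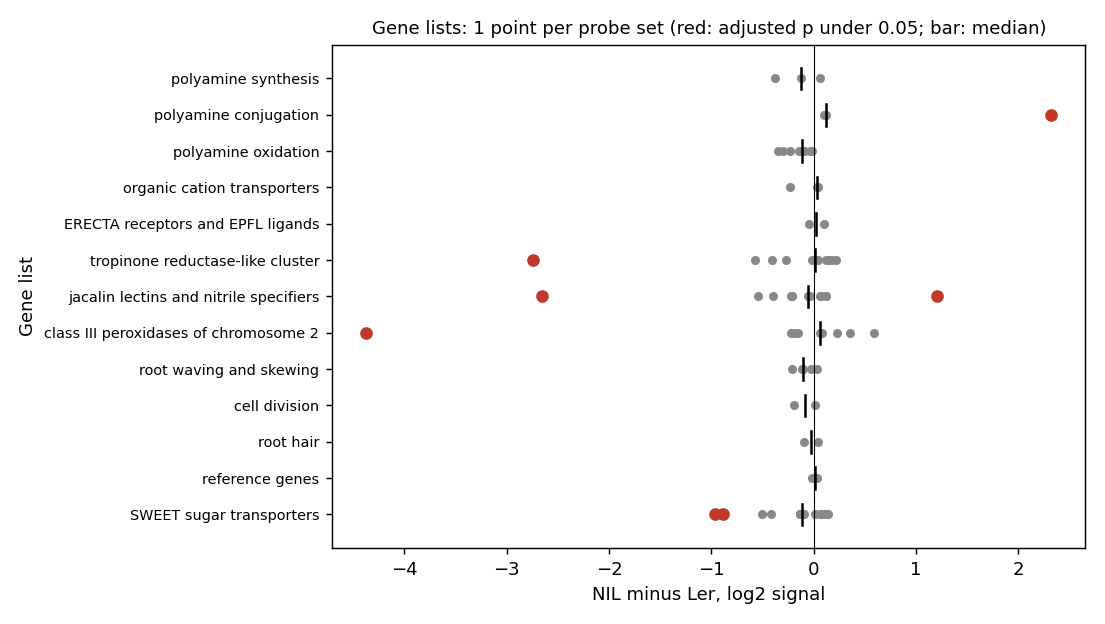
NIL minus L*er* difference in log2 signal (x axis) of each probe set of the 13 gene lists with more than 1 probe set named here, *SWEET* genes included (y axis), with a black bar at the median of each list and red points for an adjusted p under 0.05. Where a list has red points these are 1 or 2 members, and the medians lie between −0.12 and 0.12.

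Of the 15 called probe sets with no gene in the annotation used here, 3 were higher and 12 lower in the NIL. The largest difference of the whole comparison was at the probe set 266307_at, with 3.25, 3.43 and 3.47 in the NIL and 8.51, 8.40 and 8.52 in L*er*. Its NIL arrays were very dim and its L*er* arrays well above them, a 34.2-fold difference (−5.10, standard error 0.13, adjusted p = 2.52e-08 from limma), or 14.1-fold with 16 added to every signal. Cvi, at 3.25, 3.70 and 3.48, was as dim. The probe set 266296_at was lower by 3.60-fold (−1.85, adjusted p = 6.09e-04 from limma). Among the higher ones, 266001_at had 9.85, 10.02 and 9.54 in the NIL and 8.13, 8.35 and 8.11 in L*er* (1.61, adjusted p = 6.58e-04 from limma), and 267165_at differed by 1.07.

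Of 55 probe sets (0.242%) that differed by at least 2-fold at any p, 12 did not pass the adjusted p. Of the 4 with 1 gene, the chloroplast genes *cemA* and *petA*, for an envelope membrane protein and cytochrome f of photosynthetic electron transport, had differences of −1.19 and −1.14 (adjusted p = 0.738 and 0.449 from limma). The other named genes were AT2G22510 at −1.05 and AT2G26690 at −1.06 (adjusted p = 0.637 and 0.0522 from limma). Both lay between the bounds on chromosome 2.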

How the data were processed

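The authors deposited a linear intensity for every probe set of each array, already normalized between arrays. MAS5 and RMA are the tools in the submitters' processing notes. Their versions and roles, and a genome build, were not given there or in the methods, so gene order by locus number was used and no coordinates. Array medians ran from 109.9 to 122.3, and the values were not normalized again. The number of arrays limits the precision, and no detection calls were used.

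Of 22810 probe sets, 64 controls were left out. Through the platform annotation, 13513 of the other 22746 have 1 gene, 503 several and 8730 are unnamed here, and 13367 were placed on the 5 chromosomes.

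Limma 3.58.1 (R 4.3.3) was run on the log2 signals of all 9 arrays with lmFit and eBayes, on genotype alone, which leaves 6 residual degrees of freedom. For the arrays the paper gives a 95% confidence level and a difference of at least 2-fold between Cvi and L*er*, but names no test. Named were all called genes, with values per array for the 10 largest in each direction and all outside the bounds, the genes at the ends, list members that passed and up to 3 others per list with the highest mean signal, and at most 2 unnamed probe sets per direction. Other genes under 2-fold, near L*er* inside the bounds or past the ends, as well as AT2G22420, *JAL23* and the *SWEET* genes, were chosen after their values were seen. The members, the bounds and the 21 lists (226 entries, 63 named here, 8 lists with none) were chosen with earlier results of these data known. Roles of genes are general background.

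The fit was tested on simulated data for this comparison over 22746 probe sets. It recovered 93 of 100 true changes of 1.5 (log2) and 100 of 100 true changes of 3 and made 1 false call. True changes nearer to 2-fold were not simulated, so the recovery of the smaller called differences was not tested. Alternatives were quantile normalization, leaving out the dimmest probe sets, the 6 arrays alone, a replicate block, a trended robust fit, log2 of the signal plus 16, each array left out and other thresholds.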

Additional observations from a re-analysis of the deposited data

How the results depend on the processing

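Against the 43 probe sets called (11 higher and 32 lower in the NIL, 27 in the chromosome 2 stretch and 1 gene elsewhere), the counts were 38 with quantile normalization, 36 without the dimmest probe sets, 47 with the 6 arrays alone and 44 with a trended robust fit. With log2 of the signal plus 16, 28 were called, 6 of them higher, and 0 elsewhere. A treat test for a fold above 1.5 called 21, 4 higher and 17 lower, 15 in the stretch. At any fold the counts were 81, with 23 higher and 58 lower, 46 in the stretch and 8 elsewhere. Leaving out NIL or L*er* arrays in turn gave 28 to 38 calls, 6 to 10 higher and 21 to 28 lower, 20 to 24 in the stretch and 1 to 2 elsewhere. The count higher in the NIL was 6 or 7 without NIL array 1 or 3 or L*er* array 2 or 3, and the count elsewhere 2 without NIL array 2 or L*er* array 1 or 3. Without Cvi array 1, which stands apart from the other Cvi arrays, 48 were called (11 higher and 37 lower, 28 in the stretch), all 43 among them. Same-numbered NIL and L*er* arrays hardly deviated together (r = 0.028, 0.056 and 0.055 over probe sets). Pairs with different numbers were not compared, so whether the numbers stand for a shared batch was not tested. The replicate block called 42, of which 40 were among the 43. Of 35 named genes followed, 0 changed direction. At any fold, 19 passed the adjusted p in every alternative that keeps this threshold and in which they were tested. All 19 were among the 28 called at 2-fold. AT2G23400 and AT2G32190, 2 of them, were among the dim probe sets left out in 1 alternative. AT2G32150, another of the 19, fell under 2-fold with quantile normalization, at −0.98. At 13 of the 43 the dimmer group had a mean log2 signal under 5.37, the limit of the dim probe sets left out above. Signal over background was not measured here.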
